A study of Mus musculus with 15 samples.

Results

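Eosinophils are granulocytes of allergy and of the defence against helminths, and they can be grown from bone marrow with interleukin 5. The regions described here had called peaks of H3K27ac, an acetylation of histone H3 found at active promoters and enhancers, in the eosinophils of one mouse strain only. The DNA there was called open in both strains. They were chosen by their calls: the 4 H3K27ac peak lists were merged where peaks shared at least 1 bp, and a region was kept when both libraries of a strain and neither library of the other had a peak there. It also had to overlap an ATAC region, that is a stretch of open chromatin, with a peak in each of the 4 ATAC libraries. Of 31700 merged H3K27ac regions, 571 met the rule, 275 with H3K27ac called in BALB/c (BALB/c-private) and 296 with H3K27ac called in C57 (C57-private).

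The cells were cultured from unselected bone marrow for 14 days, with stem cell factor and FLT3 ligand at 100 ng/mL each on days 0 to 3 and interleukin 5 at 10 ng/mL on days 4 to 14. The groups used were BALB/c H3K27ac, BALB/c ATAC, BALB/c H3K4me3 and BALB/c H3K4me1 with 2 libraries each, BALB/c PU.1 with 1 library, C57 H3K27ac and C57 ATAC with 2 libraries each, and 2 BALB/c RNA libraries as a check of the cells. C57 is the word in the titles, and the strain label of those samples reads BL6/57. The age and sex of the mice are not in the labels, nor is it stated there whether replicates stem from different cultures or mice, so differences between replicates may be technical. They name no batch, so strain and the occasion on which its libraries were made cannot be told apart. H3K27ac and PU.1 lists of other cells, re-analysed by the authors, bear the names Neut, mBMDM and ImmGran, and the strain behind them is not given in the sources used here.

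An open region of DNA is free of tightly packed nucleosomes, but it need not be active. Enhancers can be opened by a pioneer factor such as PU.1, a member of the ETS family needed for myeloid development, and carry H3K4me1 before acetyltransferases add H3K27ac. Active promoters carry H3K4me3 together with H3K27ac. Differences in acetylation between mouse strains at open DNA have been a means of finding regulatory elements in which sequence variation matters. PU.1, H3K4me3 and H3K4me1 were mapped in BALB/c only, so for these the strain of the mark and the direction of the private region cannot be told apart.

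The H3K27ac lists held 20467 and 23203 peaks in BALB/c, against 14992 and 27527 in C57, and the ATAC lists 33919 to 36768. The number of reads behind the lists is unknown. In the RNA libraries of 40306679 and 30465490 counts, 8 of 8 eosinophil markers reached 1 CPM (counts scaled to the library total) in both and summed to 13094 and 13355 CPM. The share of all 25101 genes that reached 1 CPM was not computed, so such counts stand without a background. Genes listed as markers of other cells were present: 8 of 8 for neutrophils summed to 1624 and 1383, 7 of 8 for macrophages to 5192 and 6217 with Marco at 0, 4 of 4 for stromal cells to 2416 and 630, and 2 of 4 for mast cells and basophils to 54.4 and 33.7. Which cells of the culture expressed these genes was not tested. The samples of the series hold no C57 RNA library, so whether the share of other cells differed between strains was not tested.

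H3K27ac private to a strain was a small part of the acetylated open chromatin. Over all merged regions, 1162 of 31700 (3.67%) had the BALB/c-private pattern of calls, and 816 (2.57%) had the C57-private pattern. At shared open regions, of which there were 23392, the members made up 1.55% (BALB/c-private) and 1.66% (C57-private) of 17789 merged H3K27ac regions. At these open regions 11778 H3K27ac regions had a peak in all 4 libraries, and these serve below as the comparison. Thus 275 of 1162 BALB/c-private regions and 296 of 816 C57-private regions lay in DNA that both strains had open. Of all merged H3K27ac regions 17789 of 31700 lay there, and of those called in all 4 libraries 11778 of 12733. Regions with either private pattern thus lay there less often than merged regions at large, those of BALB/c least often. The rule used these calls, so the counts are a description.

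The members were weak peaks in the lists that chose them. The authors' −log10 q of BALB/c-private regions had a median of 2.05 in BALB/c replicate 1 and 2.16 in replicate 2, which is a rank at percentile 26.95 and 32.1 of the list, counted from the weakest peak. C57-private regions had medians of 1.92 in C57 replicate 1 and 2.33 in replicate 2, at percentiles 20.9 and 41.5. Regions called in all 4 libraries had median ranks between 59.2 and 77.7. The members reached down to −log10 q values of 1.02 and 1.11 in the BALB/c lists and 1.06 and 1.19 in the C57 lists, close to the minimum of 1 in the lists. BALB/c-private regions were 630 bp wide in the median (336 to 1847 bp), C57-private regions 903 bp (309 to 2780 bp), and regions called in all 4 libraries 1519.5 bp.

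**Figure D1:**
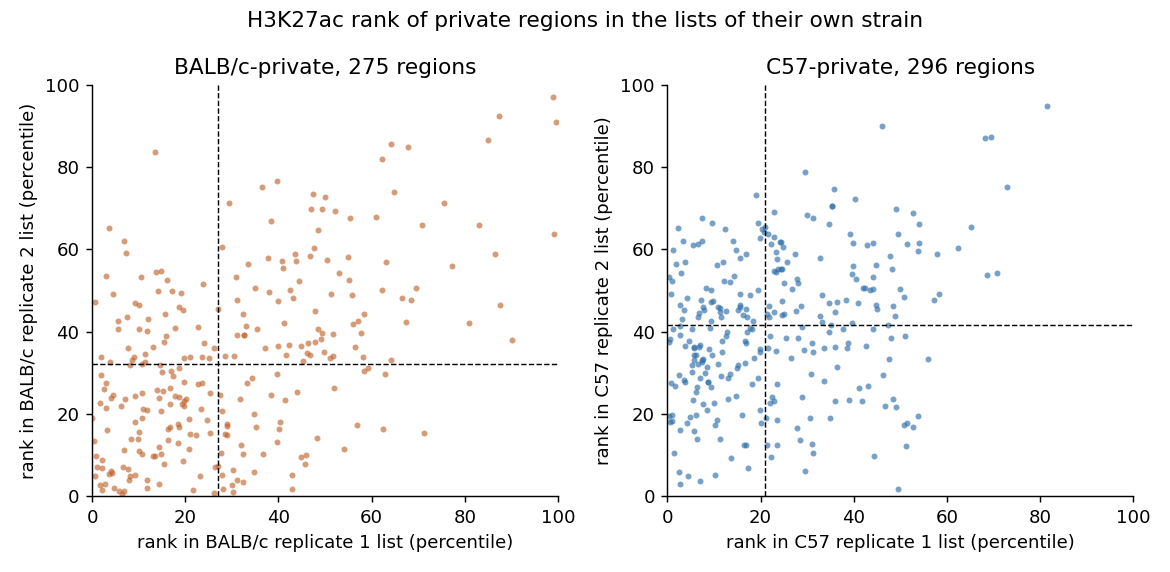
Percentile rank of each member by −log10 q in the replicate 1 (x axis) and replicate 2 (y axis) H3K27ac list of its own strain, for BALB/c-private (left) and C57-private (right) regions; each point is a region and dashed lines are medians. Most points lie in the lower part of both lists, with medians at 26.95 and 32.1 in BALB/c and at 20.9 and 41.5 in C57, and 2 BALB/c-private regions lie above 90 in both.

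Just outside the rule lay many regions with a peak in a single library of the other strain. With both BALB/c libraries called, 2087 more regions had a peak in C57 replicate 2 and none in C57 replicate 1, whose list is the shortest. Their median −log10 q in C57 replicate 2 was 2.298, and 33.2% were under 2. The reverse, a peak in C57 replicate 1 and none in replicate 2, held for 8 regions. With both C57 libraries called, 377 regions also had a peak in BALB/c replicate 2 alone (median −log10 q 1.93) and 84 in BALB/c replicate 1 alone (median 1.73). The counts therefore rest on single libraries: without C57 replicate 2 there would be 2430 BALB/c-private regions, and without C57 replicate 1 there would be 1668 C57-private ones. Leaving out BALB/c replicate 1 gave 636 BALB/c-private regions, and leaving out BALB/c replicate 2 gave 681 C57-private regions.

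A peak of the other strain lay near some members, and the share for comparison regions was not computed. It was within 500 bp of 46 BALB/c-private regions (16.7%) and of 22 C57-private regions (7.43%), and within 1000 bp of 59 and 33. The median distance was 10.0 kb for BALB/c-private regions and 9.27 kb for C57-private regions.

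A library whose calls took no part in choosing regions gives a further reading of the pattern between strains. The reading is not fully independent, because the peaks of that library were merged with the others and so helped to set region bounds. Replicates may be technical, and strain cannot be told apart from the occasion on which its libraries were made. Regions were chosen with 1 library of each strain, called in one and not in the other, and the left-out library of each strain was then read. With all H3K27ac lists limited to their 14992 peaks of highest −log10 q, the left-out library of the same strain had a peak in 58.3% to 66.4% of the regions, against 32.6% to 41.9% in the left-out library of the other strain. The same-strain share was higher in 8 of 8 choices at equal lengths. The 8 choices reuse the same 4 libraries and share regions, so they describe the lists and test nothing. A peak missing at equal lengths may also lie below the limit in the full list. With the lists as deposited the same-strain share was higher in 6 of 8 choices and lower in 2. Of regions in BALB/c replicate 2 and not C57 replicate 1, 67.2% (65.6 to 68.7) had a peak in BALB/c replicate 1, against 81.8% (80.4 to 83.0) in C57 replicate 2. Of regions in C57 replicate 2 and not BALB/c replicate 1, 23.8% (22.3 to 25.4) had a peak in C57 replicate 1, against 41.1% (39.3 to 43.0) in BALB/c replicate 2. At equal lengths, for example, chosen by BALB/c replicate 1 without C57 replicate 1, 976 of 1470 regions (66.4%, interval 63.9 to 68.8) had a peak in BALB/c replicate 2 and 616 (41.9%, 39.4 to 44.4) in C57 replicate 2. Chosen by C57 replicate 1 without BALB/c replicate 1, 1215 of 1899 regions (64.0%, 61.8 to 66.1) had a peak in C57 replicate 2 and 692 (36.4%, 34.3 to 38.6) in BALB/c replicate 2. These intervals, like those below, cover counting error over regions only and hold no spread between libraries.

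**Figure D2:**
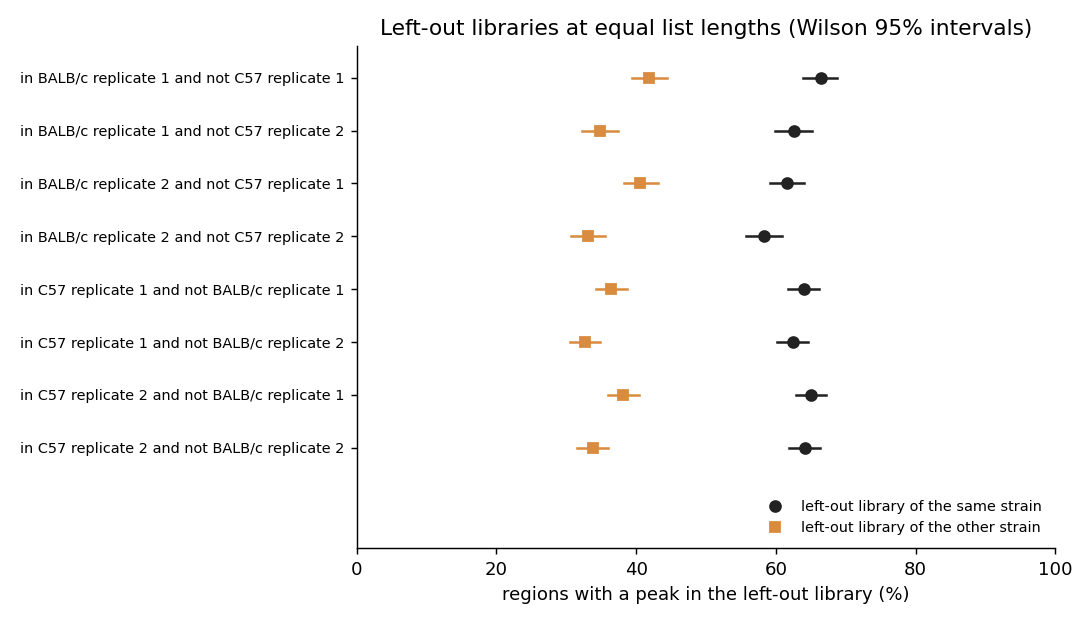
Share of regions with a peak in a library that did not choose them (x axis, percent), for the 8 ways to take a library of each strain (y axis), at equal list lengths; circles are the left-out library of the strain with the peak, squares that of the other strain, and lines are Wilson 95% intervals. Circles lie at 58.3% to 66.4% and squares at 32.6% to 41.9%.

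Regions were also chosen with 3 libraries from the lists as deposited, and the share called in the 1 library left out was then higher for the longer C57 list than for the shorter one. The left-out C57 replicate 2, the longest list, had a peak in 2087 of 2362 regions (88.4%) called in both BALB/c libraries and not in C57 replicate 1. The left-out C57 replicate 1, the shortest, had one in 8 of 283 (2.83%) called in both BALB/c libraries and not in C57 replicate 2. Of regions called in C57 replicate 1 and in neither BALB/c library, C57 replicate 2 had a peak in 296 of 327 (90.5%). Of those called in C57 replicate 2 and in neither BALB/c library, C57 replicate 1 had a peak in 296 of 1664 (17.8%). In BALB/c, replicate 2 had a peak in 275 of 382 regions (72.0%) called in replicate 1 and in neither C57 library, and replicate 1 in 275 of 641 (42.9%) the other way round.

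Limiting the H3K27ac lists to equal length changed which regions were private. It gave 504 BALB/c-private and 673 C57-private regions, or 3.35% and 4.47% of 15062 merged regions at shared open chromatin. Only 82 of the 275 BALB/c-private regions (29.8%) and 121 of the 296 C57-private regions (40.9%) were among them, since most members rank below the limit in at least 1 list of their own strain. Conversely 422 of the 504 (83.7%) and 552 of the 673 (82.0%) had a peak of the other strain in the full lists. The 82 and 121 regions are those private under both settings.

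Other myeloid cells had H3K27ac at many members, and more often at C57-private ones in 2 of the 3 lists. In Neut the share was 30.5% of BALB/c-private regions (84 of 275) and 47.3% of C57-private regions (140 of 296), a difference of −16.8 percentage points (95% Newcombe interval −24.4 to −8.76). In mBMDM it was 61.8% (170) and 78.4% (232), a difference of −16.6 points (−23.8 to −9.07). In ImmGran it was 43.3% (119) and 39.9% (118), a difference of 3.41 points whose interval of −4.65 to 11.4 includes 0. All of these shares were below those of regions called in all 4 libraries, which were 82.4% in Neut, 93.3% in mBMDM and 87.6% in ImmGran. Over all 17789 merged H3K27ac regions at shared open regions the shares in this order were 69.1%, 86.5% and 74.5%. Over all 31700 merged regions they were 50.9%, 68.3% and 54.4%, and the C57-private share in mBMDM was above this last level. Without C57 H3K27ac replicate 2 the Neut difference was 1.03 and the mBMDM difference −1.93, while the ImmGran difference was 25.4. Without C57 replicate 1 the Neut and mBMDM differences were −7.14 and −8.79. Without BALB/c replicate 2 the ImmGran difference was −9.05. With every kind of list limited to equal length, which left 466 BALB/c-private and 642 C57-private regions, the differences were −14.8 in Neut, −12.9 in mBMDM and 9.69 in ImmGran (3.79 to 15.5). The interval of the ImmGran difference was clear of 0 under this setting.

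Members without acetylation in any of the 3 other cells made up 64 BALB/c-private regions (23.3%), 40 C57-private regions (13.5%) and 2.61% of regions called in all 4 libraries. Acetylation in all 3 was found at 35 BALB/c-private regions (12.7%), 61 C57-private regions (20.6%) and 74.0% of those called in all 4. The most common single pattern among BALB/c-private regions after none was mBMDM with ImmGran (55 regions), closely followed by mBMDM alone (54). Among C57-private regions it was mBMDM alone (67 regions), followed by all 3 lists (61) and by Neut with mBMDM (60). Neut with mBMDM was found at 26 BALB/c-private regions. The lists differ in length, with 21838 peaks in Neut, 59401 in mBMDM and 36357 in ImmGran, so shares are compared between directions within a list and not between lists.

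**Figure D3:**
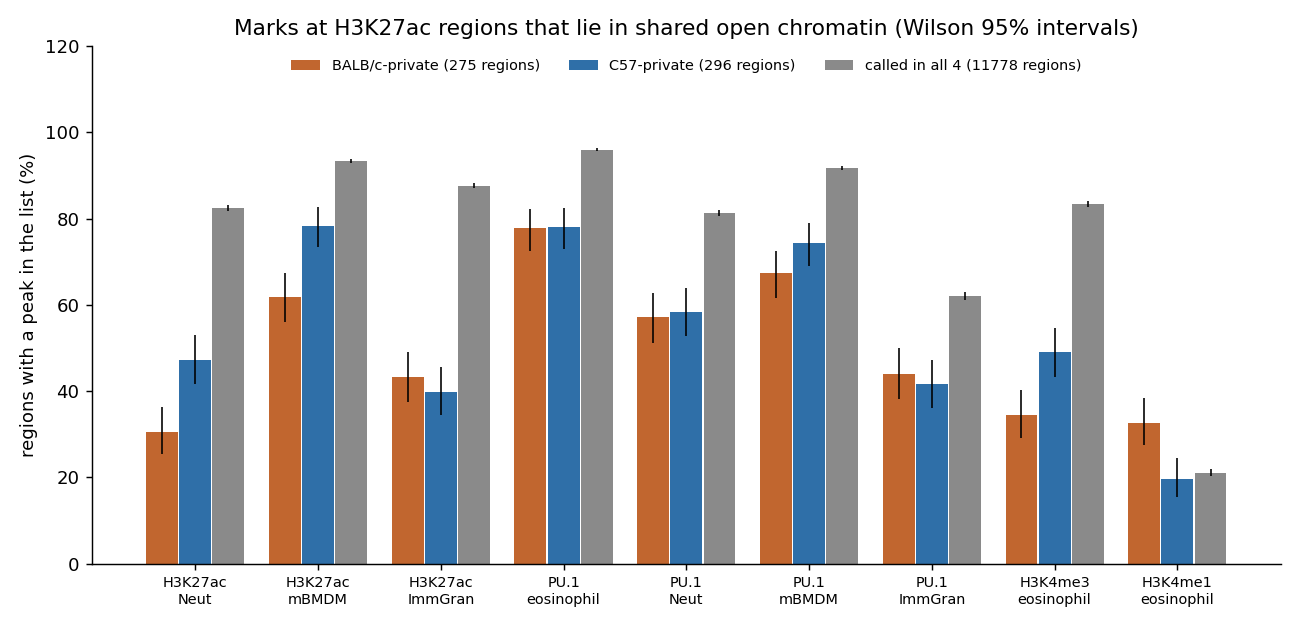
Share of H3K27ac regions at shared open chromatin (y axis, percent) with a peak in each list (x axis) for 275 BALB/c-private, 296 C57-private and 11778 regions called in all 4 libraries; bars are shares and lines are Wilson 95% intervals. BALB/c-private bars are below C57-private bars for H3K27ac in Neut (30.5% and 47.3%) and mBMDM (61.8% and 78.4%) and for H3K4me3 (34.5% and 49.0%), and above them for H3K4me1 (32.7% and 19.6%).

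PU.1 in BALB/c eosinophils was found at members of both directions at nearly the same share. A PU.1 peak lay in 214 of 275 BALB/c-private regions (77.8%, Wilson interval 72.5 to 82.3) and in 231 of 296 C57-private regions (78.0%, 73.0 to 82.4), a difference of −0.222 points (−7.05 to 6.55). C57-private regions had no H3K27ac peak in BALB/c, so these PU.1 peaks were called in BALB/c chromatin without called acetylation. Of regions called in all 4 libraries 95.9% had PU.1. It lay at 91.5% of all merged H3K27ac regions at shared open regions and at 72.5% of all merged regions, below both directions. In the PU.1 list of Neut the shares were 57.1%, 58.4% and 81.2% for BALB/c-private, C57-private and all-4 regions. In ImmGran they were 44.0%, 41.6% and 62.1%, and in mBMDM 67.3%, 74.3% and 91.7%. Over all merged H3K27ac regions they were 60.5% in Neut, 41.5% in ImmGran and 68.0% in mBMDM. At shared open regions those of all merged regions were 75.8%, 56.8% and 86.2%. PU.1 in the eosinophil list and in none of the 3 other PU.1 lists was found at 36 BALB/c-private regions (13.1%, 9.61 to 17.6) and 21 C57-private regions (7.09%, 4.69 to 10.6), against 3.65% of regions called in all 4. The near-equal shares depended on the lists: without C57 H3K27ac replicate 2 the difference was 14.4 points, and without BALB/c replicate 2 it was −8.79.

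The PU.1 peaks at members ranked close to those at regions called in all 4 libraries. Each region was given the rank of its highest-ranked peak in the list. By the authors' fold enrichment their median rank in the eosinophil PU.1 list was percentile 70.9 at BALB/c-private regions and 63.8 at C57-private regions, against 66.0 at regions called in all 4 libraries. H3K27ac in the other cells ranked lower at members than at regions called in all 4 libraries. The latter are wider and can hold more peaks, and the part of width in these ranks was not tested. In the Neut list the median rank was 43.7 at BALB/c-private and 37.6 at C57-private regions, against 71.2 at regions called in all 4. In mBMDM it was 61.8 and 62.8, against 79.5. In ImmGran it was 55.0 and 59.2, against 71.6.

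The histone marks of promoters and enhancers in BALB/c were found at different shares of the directions. H3K4me3, called in both of its libraries, lay at 95 BALB/c-private regions (34.5%) and 145 C57-private regions (49.0%), a difference of −14.4 points (−22.3 to −6.35), and at 83.4% of regions called in all 4. H3K4me1, called in both of its libraries, lay at 90 BALB/c-private regions (32.7%) and 58 C57-private regions (19.6%), a difference of 13.1 points (5.93 to 20.2), and at 21.1% of regions called in all 4. Over all merged H3K27ac regions H3K4me3 lay at 45.4% and H3K4me1 at 22.6%. For all merged regions at shared open regions the shares were 70.0% and 24.6%. Single libraries had the same direction, with H3K4me3 at 37.1% and 49.3% (replicate 1) and at 39.3% and 53.0% (replicate 2) of BALB/c-private and C57-private regions. H3K4me1 stood at 47.3% and 29.1% (replicate 1) and at 44.4% and 30.1% (replicate 2). Without C57 H3K27ac replicate 2 the H3K4me3 difference was 2.84, and without C57 replicate 1 it was −6.02. Without BALB/c replicate 2 the H3K4me1 difference was 2.19. At the 82 and 121 regions private also at equal lengths, H3K4me3 lay at 48.8% of BALB/c-private and 54.5% of C57-private regions, a difference of −5.76 points (−19.3 to 8.08). H3K4me1 lay there at 23.2% and 14.9%, a difference of 8.29 points (−2.47 to 19.8), so both intervals include 0.

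Counted in classes, 81 BALB/c-private and 132 C57-private regions had H3K4me3 without H3K4me1, and 76 and 45 had H3K4me1 without H3K4me3. Both marks were called at 14 and 13 regions, and neither at 104 (37.8%) and 106 (35.8%). Of regions called in all 4 libraries, 72.0% had H3K4me3 without H3K4me1 and 9.76% H3K4me1 without H3K4me3. Both marks lay at 11.4% of them and neither at 6.83%. At least 1 of PU.1, H3K4me3 and H3K4me1 was called in BALB/c at 253 BALB/c-private regions (92.0%) and at 280 C57-private regions (94.6%, interval 91.4 to 96.6). The second set had no H3K27ac peak in that strain. Both shares were below the 99.7% of regions called in all 4 libraries. Within regions that had H3K4me3, H3K27ac in Neut was found at 17.9% of BALB/c-private and 36.6% of C57-private regions, while H3K27ac in ImmGran was found at 52.6% and 39.3%, a difference of 13.3 points (0.477 to 25.7). Within regions without H3K4me3, H3K27ac in Neut was found at 37.2% of BALB/c-private and 57.6% of C57-private regions. H3K27ac in ImmGran was found there at 38.3% and 40.4%, a difference of −2.06 points (−12.5 to 8.38).

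Width moved with these shares. Under 500 bp lay 71 BALB/c-private regions (25.8%) and 25 C57-private regions (8.45%), and 1000 bp or more was reached by 40 (14.5%) and 120 (40.5%). At 500 to under 1000 bp, with 164 and 151 regions, H3K4me1 was found at 36.6% of BALB/c-private and 14.6% of C57-private regions, a difference of 22.0 points (12.5 to 31.0). There the differences were −17.3 for H3K4me3 (−27.6 to −6.46), −14.0 for H3K27ac in Neut (−24.3 to −3.23) and −18.0 in mBMDM (−27.4 to −8.19). At 1000 bp and over the Neut difference was −22.5 (−37.3 to −4.70). Under 500 bp the H3K4me1 and H3K4me3 differences were −0.282 (−20.9 to 15.2) and 1.07 (−20.8 to 21.9), with intervals too wide to read a direction.

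Within open chromatin common to the strains, the median ATAC rank was higher in the strain with the H3K27ac peak. The 23392 ATAC regions called in all 4 libraries were ranked by the authors' fold enrichment within each list, from 0 for the lowest to 100 for the highest, so that list length did not enter. The open regions at BALB/c-private members had median ranks of 40.7 and 41.4 in the BALB/c ATAC libraries, against 31.6 and 32.7 in the C57 libraries. Those at C57-private members had 29.9 and 31.4 in the BALB/c libraries, against 34.7 and 35.3 in the C57 libraries. The median shift, BALB/c minus C57, was 3.94 percentile points at BALB/c-private regions (quartiles −6.88 and 20.9), −2.66 at C57-private regions (−14.6 and 7.001) and −0.301 at regions called in all 4 (−7.52 and 6.78). Both BALB/c libraries ranked above both C57 libraries at 89 BALB/c-private regions (32.4%) and 52 C57-private regions (17.6%), where 20.7% of all 23392 regions did so. Both C57 libraries ranked above both BALB/c libraries at 47 BALB/c-private regions (17.1%) and 85 C57-private regions (28.7%), where 21.3% of all did so. The median shifts of the directions differed by 6.60 points; the exact permutation test over the 4 ATAC libraries, two-sided, gave p = 0.33, the smallest that 2 libraries against 2 allow. The ATAC and ChIP libraries were made with a transposase, and its part in this relation was not tested.

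**Figure D4:**
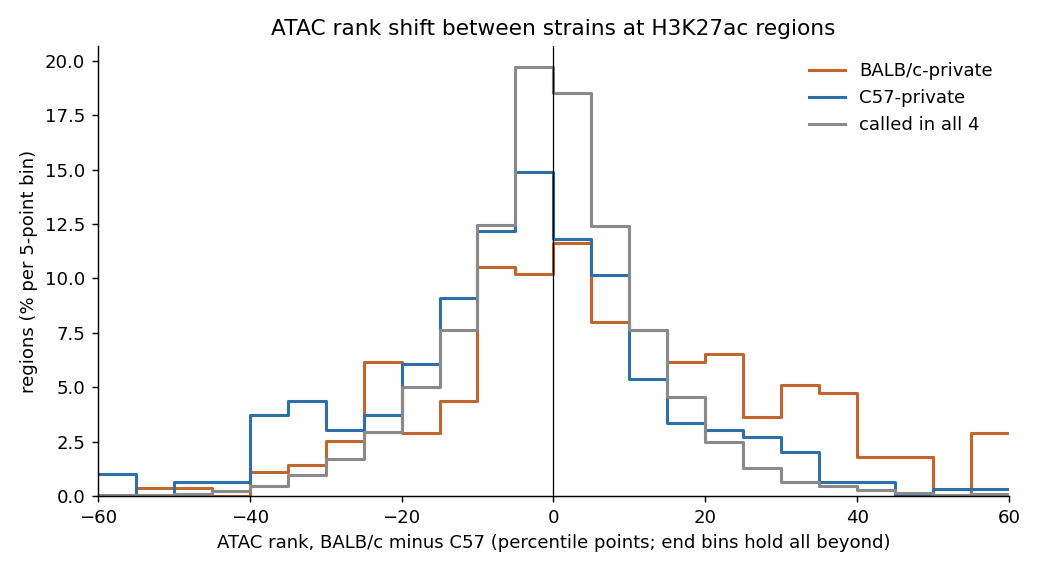
Distribution of the ATAC rank shift, BALB/c minus C57 in percentile points (x axis), as the share of regions per bin (y axis), for BALB/c-private, C57-private and regions called in all 4 libraries. The BALB/c-private curve has a longer right arm and the C57-private curve a longer left arm, with medians at 3.94, −2.66 and −0.301.

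Members that stayed private at equal list lengths had a median shift of 13.3 points at the 82 BALB/c-private regions and −3.40 at the 121 C57-private regions. At the 82 regions both BALB/c libraries ranked above both C57 libraries in 37 cases (45.1%) and below them in 7 (8.54%). At the 121 regions both C57 libraries ranked above both BALB/c libraries in 40 cases (33.1%) and below them in 26 (21.5%), a share near the 20.7% of all shared open regions. At all 504 and 673 regions private at equal lengths the medians were 2.16 and −2.47. The direction was the same with and without H3K4me3 (4.31 and 3.87 at BALB/c-private, −2.72 and −2.18 at C57-private regions) and in each width class. Regions called in all 4 libraries had medians of −0.0663 with H3K4me3 and −2.20 without it. Without H3K4me3, a negative shift was thus not particular to C57-private regions. The direction was also present where a peak of each ATAC list lay inside the H3K27ac region itself, which held for 227 BALB/c-private regions (82.5%, median 5.19) and 266 C57-private regions (89.9%, median −3.28). Where that did not hold, the median was 2.52 at 48 BALB/c-private regions and 0.109 at 30 C57-private regions, of which 9 had both BALB/c libraries and 6 both C57 libraries on top.

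The shift of BALB/c-private regions also differed with acetylation in other cells. It had a median of 12.4 points at the 64 regions without H3K27ac in Neut, mBMDM and ImmGran, 5.92 at 84 regions with it in 1 list, 2.20 at 92 regions with it in 2 lists and −1.04 at the 35 regions with it in all 3. For C57-private regions the medians in this order were −6.44 at 40 regions, −1.61 at 83, −2.67 at 112 and −2.94 at 61. At the 64 BALB/c-private regions both BALB/c libraries ranked above both C57 libraries in 26 cases (40.6%), and at the 35 regions in 5 (14.3%). Regions called in all 4 libraries did so in 14.0% of cases without H3K27ac in the other cells and in 21.8% with it in all 3. Their median shifts ran from −2.45 without it to −0.0919 with it in all 3. With it in 1 list their median was −1.52, near the −1.61 of C57-private regions. The ranges between quartiles of these classes overlap.

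**Figure D5:**
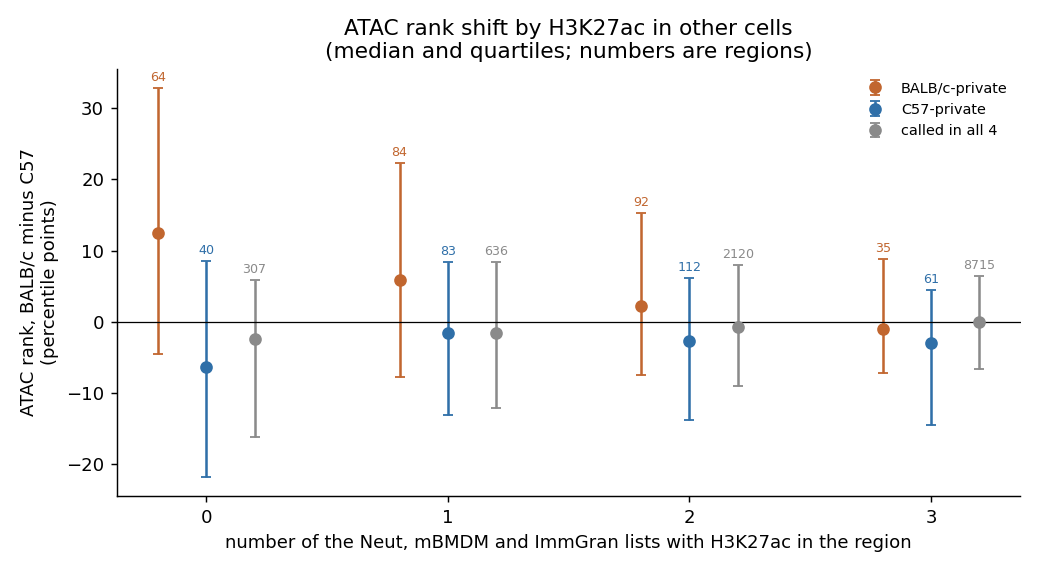
ATAC rank shift, BALB/c minus C57 in percentile points (y axis), by the number of the Neut, mBMDM and ImmGran lists with H3K27ac in the region (x axis), for BALB/c-private, C57-private and regions called in all 4 libraries; points are medians, lines run between quartiles and numbers count regions. The BALB/c-private median falls along the axis, with 12.4 at 0 lists and −1.04 at 3 lists, and the C57-private medians lie between −6.44 and −1.61.

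The 5 strongest BALB/c-private regions were 472 to 1124 bp wide and lay 20.6 to 1831 kb from the nearest C57 H3K27ac peak. The positions are those of the deposited lists, in the mm9 build, and no gene is named because no annotation of this build was used here. Lists of both strains are in this build, and whether mapping to it differed between strains was not tested. The first by the lower of its ranks in the BALB/c lists was chrX:125590918-125591395, 478 bp wide, with −log10 q values of 10.2 and 8.76 at percentiles 99.0 and 97.2. It carried PU.1 and both libraries of H3K4me3 and H3K4me1 in BALB/c, had no H3K27ac or PU.1 in the lists of other cells, and lay 693 kb from the nearest C57 peak. Its open region ranked 99.6 and 98.8 in the BALB/c ATAC libraries, against 2.95 and 23.0 in the C57 libraries. The second, chr3:21597156-21597669 (514 bp), stood at percentiles 99.5 and 91.0, with H3K4me3, PU.1 in all 4 PU.1 lists and H3K27ac in mBMDM. Its ATAC ranks were 98.4 and 95.3 in BALB/c, against 61.8 and 40.8 in C57.

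The next, chr2:41751523-41751999, was 477 bp wide and 1831 kb from a C57 peak, with ATAC ranks of 83.8 and 84.1 in BALB/c, against 32.2 and 66.0 in C57. At chr5:46826799-46827270 (472 bp, 577 kb from a C57 peak) they were 78.3 and 89.2, against 10.7 and 17.3. At chr9:102736891-102738014 (1124 bp) they were 44.1 and 61.6, against 15.1 and 7.61. None of these last 3 had H3K27ac in the lists of other cells, and the BALB/c ATAC ranks of all 5 regions were above their C57 ranks. The chr9 region is also among the strongest with eosinophil PU.1 and no H3K27ac elsewhere, together with the chrX region and chr11:72698366-72699625, which lay 0.038 kb from a C57 peak and had ATAC ranks of 18.9 and 33.1 in BALB/c, against 20.3 and 37.6 in C57.

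BALB/c-private regions with H3K27ac in all 3 other cells and PU.1 ranked lower, led by chr4:122983129-122983739 at percentiles 47.6 and 60.5. The next were chr16:31209798-31210767 (43.7 and 57.3) and chr15:38464930-38465640 (49.1 and 38.1). Their nearest C57 peaks lay 6.98, 8.19 and 7.43 kb away. The ATAC shift was 33.3 at the chr4 region, −3.41 at the chr16 region and 22.3 at the chr15 region.

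The 5 strongest C57-private regions were 386 to 2193 bp wide and lay 2.70 to 19.6 kb from the nearest BALB/c peak. The first, chr4:126692219-126693373 (1155 bp), had −log10 q values of 5.85 and 11.8 at percentiles 81.4 and 94.9 of the C57 lists, and lay 4.91 kb from a BALB/c peak. It carried PU.1 in BALB/c and H3K27ac in Neut and mBMDM, and no H3K4me3. Its open region ranked 77.7 and 48.1 in the BALB/c ATAC libraries, against 89.0 and 82.8 in the C57 libraries. At chr6:134065161-134066091, with percentiles of 72.9 and 75.2, H3K27ac in all 3 other cells, PU.1 in all 4 PU.1 lists and H3K4me3, the ATAC ranks were 19.9 and 7.51 in BALB/c, against 18.7 and 6.43 in C57. At chr16:38712395-38714587 (2193 bp, H3K4me3 and H3K27ac in all 3 other cells) they were 35.5 and 30.7, against 54.4 and 40.9. At chr9:106788382-106789524 they overlapped, with 51.4 and 72.0 against 72.2 and 69.5. At chr2:25083939-25084324 (386 bp) they were 7.41 and 5.68, against 21.2 and 13.5.

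Of C57-private regions with PU.1 and no H3K27ac in the other cells, the strongest was chr10:62522566-62524519 (1954 bp), which had H3K4me3 and H3K4me1 in BALB/c and a shift of −1.33. It was followed by chrX:72918755-72919261, an open region at ranks of 92.9 or more in each ATAC library, and chr8:88142108-88143269 with H3K4me1. With H3K27ac in all 3 other cells the list goes on with chr15:25757659-25758907 (1249 bp), at percentiles 54.0 and 61.6.

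A second member of the same direction within 100 kb, between centres, was found for 27 BALB/c-private regions (9.82%) and 16 C57-private regions (5.41%), and 24 and 22 had a member of the other direction that near. Of regions called in all 4 libraries, 5.50% lay within 100 kb of a BALB/c-private region and 6.95% within 100 kb of a C57-private region. BALB/c-private regions formed 13 runs with gaps of at most 100 kb, and C57-private regions 8 runs of 2. The longest run, chr7:142782459-142844220, held 3 BALB/c-private regions in 61.8 kb with 1 region called in all 4 libraries among them. The next in genome order were chr6:48202663-48287422 and chr7:16630738-16638154 with 2 BALB/c-private regions each, and chr7:52961782-52997876, chr7:75334255-75354103 and chr8:107778337-107794193 with 2 C57-private regions each. Chromosome X held 10 BALB/c-private and 9 C57-private regions, and chromosome Y none of either, with 1 and 1 H3K27ac peaks in the BALB/c lists, against 4 and 6 in the C57 lists.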

How the data were processed

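Peak positions, fold enrichment (column 7) and −log10 q (column 9) are the authors', deposited as 1 list per library; here they serve to describe peaks and to order or limit a list. The submitters' processing notes name the mm9 build and, among other tools, HOMER and Bowtie2 2.3.4.1; the peak caller is not given in the sources used here. The authors deposited RNA read counts per gene, which were divided by the library total. ATAC libraries followed Omni-ATAC and ChIP libraries ChIPmentation, per the labels' protocols. Merging, overlap (at least 1 bp) and intervals were computed in Python 3.11.15 with pandas 2.3.3 and numpy 2.4.6 and tested on simulated lists; bedtools 2.31.1 gave the same overlap counts. Wilson and Newcombe 95% intervals cover counting error over regions, which are not replicates. Sequencing depth is unknown. Alternatives (list lengths, thresholds, joining, overlap, width, libraries left out) are given in the closing section.

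The members and lists were chosen with earlier results of these data known. Named regions, outside chromosome 18 and unplaced sequence, are per direction the 5 with the highest lower rank by −log10 q, the 3 such with H3K27ac in all 3 other cells and PU.1, the 3 with none and PU.1, and the 3 longest runs. No sequence is printed, as no genome of this build was used here.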

Additional observations from a re-analysis of the deposited data

Results flagged for a closer look

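The ATAC rank was higher at BALB/c-private than at C57-private regions in both BALB/c ATAC libraries, by 10.8 and 10.1 percentile points in the medians, and lower in both C57 ATAC libraries, by 3.05 and 2.54 points. Every library of a strain thus lay on the side of its own private regions. The difference of median shifts, 6.60 points, cannot pass a threshold in an exact permutation test over 2 libraries against 2 (two-sided p = 0.33).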

How the results depend on the processing

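With the replicate block, an alternative chosen after seeing the data in which ATAC ranks were differenced within the replicate numbers shared by the strains, the shifts of the directions differed by 5.42 and 6.50 points (mean 5.96; exact sign-flip permutation, two-sided, p = 0.50, the smallest that 2 pairs allow). The labels do not say that the numbers pair the samples. The counts and shares of regions come from no test, so no block was applied to them. Of 179 values recomputed, 149 were counted as unchanged, 26 as moved and 4, whose reported interval was clear of 0, turned their sign. Sign changes were not counted where the reported interval includes 0. There the sign was kept in 16 of 20 alternatives for H3K27ac in ImmGran and in 7 of 20 for PU.1. Unchanged meant within the interval, spread or count range of the reported value. For the ATAC shift it meant only the same sign, which held for all 15 of its alternatives. At equal lengths of all kinds of list there were 466 BALB/c-private and 642 C57-private regions; with −log10 q of at least 2 there were 413 BALB/c-private ones; with regions open in both libraries of either strain there were 525 and 539. Leaving out a library gave 282 to 2430 BALB/c-private and 301 to 1668 C57-private regions. It gave share differences (BALB/c-private minus C57-private, in points) of −18.1 to 1.03 for H3K27ac in Neut, −18.1 to −1.93 in mBMDM, −9.05 to 25.4 in ImmGran, −8.79 to 14.4 for PU.1, −17.2 to 2.84 for H3K4me3 and 2.19 to 18.2 for H3K4me1. The cause was not tested. With regions open in either strain PU.1 differed by 12.4 and H3K4me3 by −4.02. Under 500 bp the differences were −3.83 in Neut, 7.61 for PU.1, 1.07 for H3K4me3 and −0.282 for H3K4me1; at 500 to under 1000 bp H3K4me1 differed by 22.0, and at 1000 bp and over H3K4me3 by −22.5. With only the lists of marks and other cells at equal length, an alternative chosen after seeing the data, mBMDM differed by −25.2. The difference in ATAC shift was positive in 15 of 15 alternatives (3.93 to 10.1 points). The left-out library of the same strain exceeded that of the other by 24.4 points on average over 8 choices with the lists as deposited, where single choices ran between −17.3 and 70.8, and by 21.2 to 28.0 points in the alternatives. Unknown sequencing depth limits these results: a missing peak does not show that acetylation is absent.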

Other observations

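Large ATAC differences were more frequent at members than at regions called in all 4 libraries. A rank higher in BALB/c by 30 or more percentile points was found at 45 BALB/c-private regions (16.4%), 12 C57-private regions (4.05%) and 198 regions called in all 4 (1.68%). A rank higher in C57 by 30 or more was found at 9 BALB/c-private regions (3.27%), 31 C57-private regions (10.5%) and 232 regions called in all 4 (1.97%). Of the 45 regions, 19 had no H3K27ac in Neut, mBMDM or ImmGran. The limit of 30 was chosen after the values were seen, and regions called in all 4 are wider and rank higher in the ATAC lists.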
